A study of Mus musculus with 28 samples.

Results

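The regions described here gained acetylation of lysine 27 of histone H3 (H3K27ac) late in TGF-β-induced EMT and carried it as well when the ERK pathway was blocked. Peaks of 15 H3K27ac ChIP-seq libraries of mouse NMuMG cells that overlapped by 1 bp or more were joined, which gave 89050 regions, and a region counted as called in each library with a peak inside it. A region was kept when 0 of 3 libraries called it at 0h, 0 of 3 at 4h, 3 of 3 at 24h and 3 of 3 at 24h with the inhibitor (ERKi 24h). This left 478 regions, 0.537% of all regions. The regions were thus chosen by their calls at 0h, 4h, 24h and ERKi 24h, which are given only as a description. The size of the signal at ERKi 24h relative to 24h, the calls at ERKi 4h, the position in the genome and the DNA sequence were not used in the choice.

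H3K27ac marks active promoters and enhancers, and a new peak away from a promoter is commonly read as an enhancer that has become active. TGF-β drives epithelial cells towards a mesenchymal state through its receptor kinases and the Smad transcription factors, and it also activates the MAP kinase cascade in which MEK phosphorylates ERK. Nuclear targets of ERK include factors of the Fos and Jun families, which bind DNA as the dimer AP-1.

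NMuMG is an untransformed mouse mammary gland epithelial line, and the cells came from 1 subclone, NMuMG/E9. The 0h libraries came from cells before TGF-β. The other cells received TGF-β at 2 ng/ml, and 30 min earlier either the solvent DMSO (4h and 24h) or UO126, an inhibitor of MEK, at 25 µM (ERKi 4h and ERKi 24h). Each of the 5 groups had 3 libraries. The 10 RNA-seq and 3 input samples were not analysed here, so the expression of nearby genes is not given. No library analysed here had UO126 without TGF-β.

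The 15 lists held between 50445 and 69180 peaks. A peak within 1000 bp of a start site was present in all 15 libraries for the epithelial genes Cdh1, Krt8, Krt18 and Grhl2, 4 of 8 epithelial markers looked for, and for the mesenchymal genes Fn1, Vim, Cdh2 and Itga5. No library had one for Epcam, Cldn3, Cldn7 or Tagln. The lists do not give the depth of a library, but the libraries of replicate 2 stood apart, since their peaks over the regions described here were lower. The median pileup, the number of reads stacked at the summit of a peak, was 38, 20 and 35.5 in the 3 libraries at 24h and 41, 18 and 41 at ERKi 24h, in the order of the replicates.

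Stretches of DNA in or beside 10 of the regions are shown first, because letters of the AP-1 site were found in a larger share of these regions than of all regions. Each stretch has 97 bases of the plus strand of the mouse genome (mm9) with 1 match in capitals, TGANTCA for AP-1 except in the Itgb3 stretch, where AACCACA, the reverse complement of the RUNX letters TGTGGTT, is in capitals. Names are those of the nearest start site of a protein-coding gene, which need not be the gene a region acts on. Steap3 and Diras1 stand for regions also called at ERKi 4h, Gm8226 and Akap6 for those with the highest fold enrichment, Itgb3 for those that fell under ERKi, and the other 5 for the gene lists described later.
Steap3, chr1:122133064-122133160, plus strand: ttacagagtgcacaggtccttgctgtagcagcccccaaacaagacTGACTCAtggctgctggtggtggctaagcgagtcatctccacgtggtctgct
Diras1, chr10:80490145-80490241, plus strand: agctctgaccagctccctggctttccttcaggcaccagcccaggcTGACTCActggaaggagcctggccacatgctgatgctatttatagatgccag
Gm8226, chr9:84189837-84189933, plus strand: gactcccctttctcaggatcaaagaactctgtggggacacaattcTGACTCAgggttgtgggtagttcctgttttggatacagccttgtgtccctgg
Akap6, chr12:54051834-54051930, plus strand: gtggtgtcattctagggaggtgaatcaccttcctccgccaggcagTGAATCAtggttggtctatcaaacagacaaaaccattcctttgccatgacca
Itgb3, chr11:104500406-104500502, plus strand: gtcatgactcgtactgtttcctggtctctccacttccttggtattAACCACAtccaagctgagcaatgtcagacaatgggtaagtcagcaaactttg
Ltbp2, chr12:86225534-86225630, plus strand: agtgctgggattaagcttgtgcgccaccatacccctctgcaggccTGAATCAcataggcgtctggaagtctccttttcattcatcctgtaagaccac
Elf3, chr1:137123332-137123428, plus strand: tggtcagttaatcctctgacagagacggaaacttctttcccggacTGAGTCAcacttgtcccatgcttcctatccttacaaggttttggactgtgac
Runx1, chr16:92778357-92778453, plus strand: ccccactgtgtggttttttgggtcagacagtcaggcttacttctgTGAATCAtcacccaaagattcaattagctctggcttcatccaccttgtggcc
Dusp10, chr1:185741171-185741267, plus strand: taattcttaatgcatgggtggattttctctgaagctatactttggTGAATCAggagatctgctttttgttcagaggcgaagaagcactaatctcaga
Jag1, chr2:136893596-136893692, plus strand: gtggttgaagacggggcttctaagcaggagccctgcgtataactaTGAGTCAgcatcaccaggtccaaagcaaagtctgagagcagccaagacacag
In the Gm8226 region the letters lay 1 bp from the summit, and in the other 8 AP-1 stretches they lay 155 to 359 bp away. In the Jag1 stretch the capitals lay just before the start of the region, so that match is outside it. The Steap3, Elf3, Jag1, Gm8226 and Diras1 stretches held TGAGTCA or TGACTCA, and those of Dusp10, Akap6, Ltbp2 and Runx1 held TGAATCA, in the Akap6 stretch a second time in lower case.

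The first comparison placed these regions among all that appeared late. Of 1979 regions called in no library at 0h and 4h and in all 3 at 24h, 458 (23.1%) were called in 0 of 3 libraries at ERKi 24h, 302 (15.3%) in 1, 741 (37.4%) in 2 and 478 (24.2%) in all 3. The step from 2 to 3 libraries rested on 1 library: of the 741 regions, ERKi 24h replicate 2 was the one without a peak in 728 (98.2%), replicate 1 in 5 and replicate 3 in 8. Without that library, 1208 regions passed. The count was 745 without 4h replicate 3 and 775 without 24h replicate 2.

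**Figure D1:**
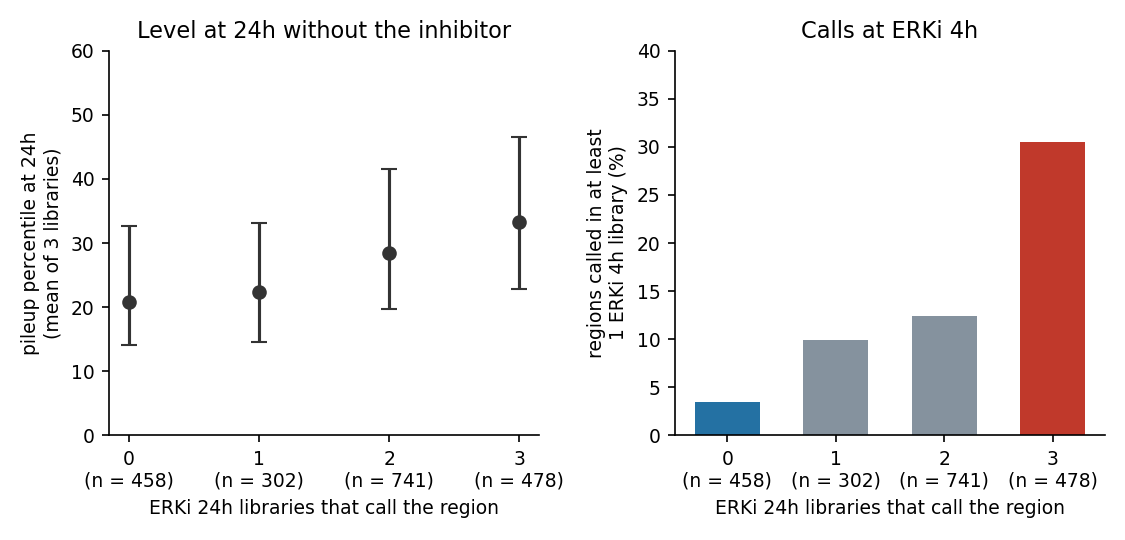
Left, median percentile by pileup at 24h, with quartiles as bars, of the regions called late with DMSO (no library at 0h and 4h, all 3 at 24h), by the number of ERKi 24h libraries that called them, and right, the share of each class in percent with a call in at least 1 ERKi 4h library. The median goes from 20.9 in regions called in none to 33.2 in those called in all 3, and the share with an ERKi 4h call from 3.49% to 30.5%.

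The signal with DMSO already differed along this order. The percentile of a peak is its rank by pileup among all peaks of its library, and its median over the 24h libraries was 20.9 in the regions called in no ERKi 24h library, 22.4 with 1, 28.5 with 2 and 33.2 with 3. The median fold enrichment over local background at 24h went from 4.34 to 4.43, 4.67 and 4.80, and the median number of bases under peaks at 24h from 354 to 388, 474 and 598. In the median, regions kept under ERKi were thus wider and higher at 24h with DMSO than those not called under ERKi. The part of signal height in the calls under ERKi was not tested.

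The edge of the choice was as follows. The lowest −log10 q values of a peak that still counted were 1.95 near Aldh1l1, which encodes an enzyme of folate metabolism, 2.02 near Nrtn, which encodes the growth factor neurturin, and 2.02 near Arhgap42. Outside it, 1512 regions missed by 1 library, 33 through an extra call at 0h, 374 through an extra call at 4h, 364 through a missing call at 24h and 741 through a missing call at ERKi 24h. The highest of these, at chr19:29292025-29293094 near the kinase gene Jak2, had pileups of 578, 320 and 684 at 24h and 393, 147 and 411 at ERKi 24h and missed through a call in 4h replicate 3 with a pileup of 205. A region at chr5:8051862-8052769 near Sri reached 394, 170 and 325 at 24h and 268 and 287 in 2 libraries at ERKi 24h. A region at chr19:42170175-42170678 near Pi4k2a reached 434, 175 and 278 at 24h and 281 and 207 in 2 libraries at ERKi 24h. Both missed through ERKi 24h replicate 2.

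Among the 478 regions, peaks were moderate in height. The mean percentile over the 6 libraries at 24h and ERKi 24h ranged from 8.63 to 92.6 with a median of 33.6, and 77 regions lay above 50. The mean fold enrichment ranged from 1.79 to 9.67 with a median of 5.04. By library, the median fold enrichment was 4.97, 4.12 and 5.17 at 24h and 5.53, 3.89 and 5.76 at ERKi 24h, so that replicate 2 was lowest in both groups and the groups overlapped.

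The regions that led by pileup were not those that stood out most from their surroundings. The 10 with the highest mean percentile (near Ubtd1, Akap9, Sfi1, Itgb6, Aebp2, Timp2, Golga7b, Tns3, Irak2 and Sfn) had fold enrichments of only 1.79 to 3.71 over a background of 28.2 to 87.7 reads, and they lay 55 to 5714 bp from a region called at 0h. The Ubtd1 region (chr19:42073265-42073998, intron) had pileups of 425, 117 and 388 at 24h and 300, 68 and 251 at ERKi 24h, a difference that was not called (−0.77, limma, adjusted p = 0.297) but was with the replicate block (3.30e-05). The Itgb6 region (chr2:60537346-60537848), in an intron of the gene for integrin β6, an epithelial partner in the activation of TGF-β, had 149, 96 and 172 at 24h and 187, 93 and 245 at ERKi 24h, but its fold enrichment was between 1.66 and 1.95 in every library. These 10 regions thus lay beside DNA that was acetylated before TGF-β. Over the 478 regions, 33 had a mean fold enrichment under 3 and 37 (7.74%) lay within 1000 bp of a region called at 0h, against 15.7% of the late-gained regions not called at ERKi 24h. Of all regions, which include those called at 0h, 38.0% lay within 1000 bp of another region called at 0h.

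The 10 regions with the highest fold enrichment, picked out after the values had been seen, showed the opposite pattern, with 8.18 to 9.67 over a background of 3.43 to 7.84 reads and 5535 to 113008 bp to the nearest region called at 0h. The first of them lay at chr18:61151597-61153461, 21341 bp downstream of the start of Slc6a7, which encodes a proline transporter. Its pileup was 121, 28 and 103 at 24h and 120, 31 and 138 at ERKi 24h. The second was in an intron of Akap6, a gene for an anchoring protein of protein kinase A (chr12:54050880-54052266), with 51, 33 and 55 at 24h and 58, 25 and 55 at ERKi 24h. The third, near Gm8226 (chr9:84189413-84190776), had 52, 26 and 51 at 24h and 55, 23 and 56 at ERKi 24h. In these 3 regions the groups overlapped.

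**Figure D2:**
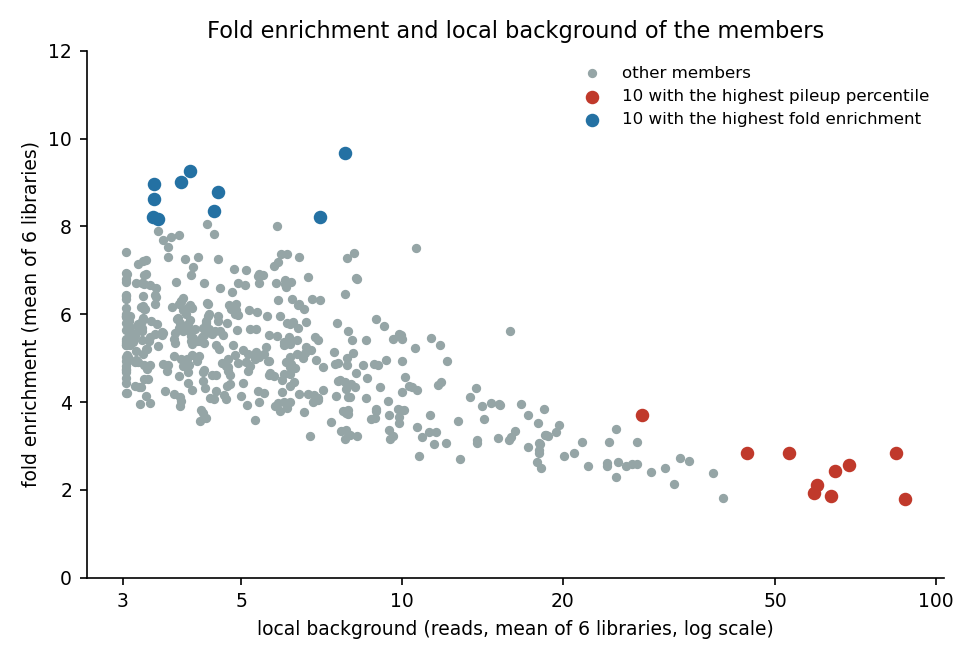
Mean fold enrichment of each of the 478 regions against the mean local background in reads on a log axis, over the 6 libraries at 24h and ERKi 24h. The 10 regions with the highest percentile by pileup sit at a background of 28.2 or more with fold enrichments up to 3.71, and the 10 with the highest fold enrichment sit at a background of 7.84 or less.

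The next comparison asked whether the height of these regions at 24h changed when MEK was inhibited, which the choice of regions did not use beyond the presence of a peak. Log2 pileups were compared in all 32021 regions called in the 6 libraries, centred on regions called in all 15 libraries, with limma. In bulk chromatin, a lower pileup can mean fewer cells with the mark or less of it in each cell, and the lists cannot tell these apart. At an adjusted p under 0.05, 18 of the 478 regions (3.77%) differed, against 4.25% of all tested regions. Of these 7 were higher under ERKi and 11 lower, where 1.74% of all tested regions were higher and 2.51% lower. In this fit the share of called regions was thus close to the background.

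The median difference, ERKi 24h minus 24h, was −0.10 on the log2 scale over the 478 regions and 0.01 over all tested regions, with 285 regions below 0 and 193 above, but it was 0.00 with the deposited fold enrichment and 0.04 without centring, where the median over all tested regions was 0.15, so its sign is not given weight. The quartiles of the differences were −0.41 and 0.26, and 326 regions (68.2%) differed by less than 0.5, against 78.3% of all tested regions. At the other end, 32 regions (6.69%) differed by more than 1, against 4.79% of all tested regions. The median standard error was 0.30. The 95% interval of the difference stayed within 1 log2 unit on either side of 0 for 237 regions (49.6%). Of the 460 regions that missed the threshold, the interval reached beyond 1 log2 unit in 223 (48.5%).

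**Figure D3:**
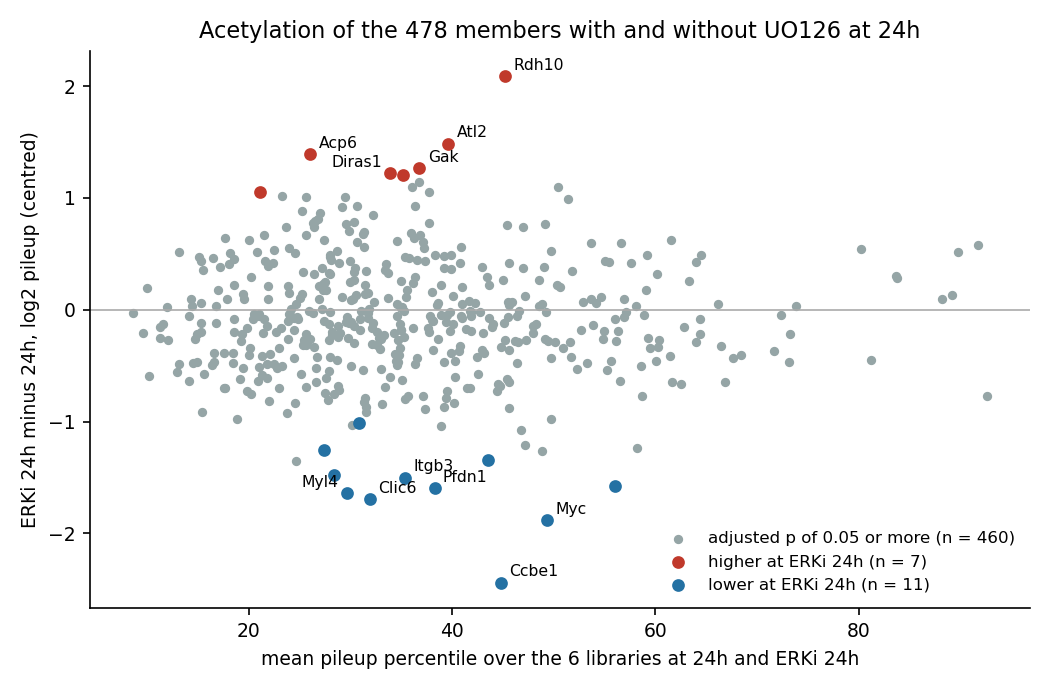
Log2 difference in pileup, ERKi 24h minus 24h, of the 478 regions (1 point each) against their mean percentile by pileup over the 6 libraries, with regions at an adjusted p under 0.05 in colour. The 7 regions called higher reach 2.09 and the 11 called lower reach −2.44.

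Among the regions that fell under ERKi, the one with the largest change lay in an intron of Ccbe1, which encodes a secreted matrix protein needed for lymphatic vessel growth (chr18:66458505-66459553). Its pileup was 112, 59 and 105 at 24h and 21, 13 and 21 at ERKi 24h, so the lowest library at 24h was above the highest under ERKi. The difference was −2.44 (SE 0.28, limma, adjusted p = 0.00113, 95% interval −3.04 to −1.84). In log2 fold enrichment it was −0.54 (limma, adjusted p = 0.137), which was not called.

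A region 334337 bp downstream of Myc (chr15:62152158-62153787), the growth-promoting transcription factor gene and a known target of ERK signalling, lay in an intron of a transcript that does not code for protein. Its pileup was 113, 55 and 91 at 24h and 25, 18 and 33 at ERKi 24h. It fell by 1.88 on the log2 scale (SE 0.29, limma, adjusted p = 0.00432). The groups did not overlap. In log2 fold enrichment the difference was −0.25 (limma, adjusted p = 0.550).

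On chromosome 11, a pair of regions 40480 bp apart fell together. The first, 11455 bp downstream of the start of Myl4 (chr11:104457012-104458836), a myosin light chain gene, had pileups of 55, 24 and 68 at 24h and 18, 12 and 18 at ERKi 24h. The second lay in an intron of Itgb3 (chr11:104499317-104501124), 2005 bp from its start, which encodes integrin β3, a receptor subunit for matrix proteins, and had 70, 26 and 68 at 24h and 25, 12 and 24 at ERKi 24h. In both regions the lowest 24h library, replicate 2, was still above the highest ERKi 24h library. The differences were −1.64 (SE 0.32, adjusted p = 0.0134) for the Myl4 region and −1.50 (SE 0.33, adjusted p = 0.0210) for the Itgb3 region. In log2 fold enrichment they were −0.61 (limma, adjusted p = 0.137) and −0.07 (adjusted p = 0.918), and neither was called.

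On chromosome 16, a region 75230 bp downstream of the start of Clic6 (chr16:92572940-92573943), a gene of the chloride intracellular channel family, had pileups of 64, 36 and 49 at 24h and 20, 13 and 17 at ERKi 24h. It fell by 1.69 on the log2 scale (SE 0.27, limma, adjusted p = 0.00531), and by 0.89 in log2 fold enrichment (adjusted p = 0.0429). A further member lay 203830 bp away in an intron of Runx1 (chr16:92777774-92779593), a transcription factor gene, with 132, 27 and 87 at 24h and 55, 12 and 45 at ERKi 24h. The Runx1 values overlapped between the groups through 24h replicate 2, and the difference of −1.26 (SE 0.46) was not called (adjusted p = 0.147), while with replicate number as a block the adjusted p was 5.23e-05.

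A region in an intron of Pfdn1 (chr18:36590647-36591810), which encodes a subunit of the chaperone prefoldin, went from 76, 39 and 58 at 24h to 29, 15 and 19 at ERKi 24h (difference −1.59, adjusted p = 0.00853), while its difference in log2 fold enrichment was −0.28 (adjusted p = 0.416). The other regions that fell were near Fam110c, Myo3b, a myosin gene, Sema3a, which encodes a secreted semaphorin, Frmd4a and Tspan7, a tetraspanin gene, with differences between −1.57 and −1.01. The Frmd4a region was 171 bp from a region called at 0h, and the Fam110c region 2661 bp.

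Among the regions that rose under ERKi, the one with the largest change lay at chr1:16225406-16226352 in an intron of Stau2, 105159 bp downstream of the start of Rdh10, the retinol dehydrogenase that starts the synthesis of retinoic acid. Its pileup was 27, 14 and 22 at 24h and 151, 36 and 156 at ERKi 24h, without overlap. The region was also called in all 3 ERKi 4h libraries, with 39, 21 and 28. The difference at 24h was 2.09 (SE 0.36, limma, adjusted p = 0.00701). Its fold enrichment moved less, from 5.14, 3.61 and 4.86 at 24h to 6.90, 4.53 and 6.31 at ERKi 24h, a log2 difference of 0.30 with an adjusted p of 0.512, so the background estimated around it was higher as well.

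A region 70979 bp downstream of the start of Atl2 (chr17:80223747-80225402), a gene for an atlastin GTPase that shapes the endoplasmic reticulum, rose from 16, 21 and 26 at 24h to 93, 32 and 85 at ERKi 24h (difference 1.49, SE 0.33, limma, adjusted p = 0.0222). One near Acp6 (chr3:96954568-96956050), a lysophosphatidic acid phosphatase gene, rose from 16, 14 and 15 to 63, 21 and 61 (adjusted p = 0.0181). One in an intron of Gak (chr5:109002255-109003193), the gene for a kinase that uncoats clathrin vesicles, rose from 21, 22 and 18 to 66, 33 and 70 (adjusted p = 0.0238). In all 3 the lowest ERKi 24h library was above the highest 24h library. In log2 fold enrichment the differences were 0.08 (limma, adjusted p = 0.927) for Atl2, 0.89 (adjusted p = 0.0841) for Acp6 and 0.46 (adjusted p = 0.178) for Gak, and none was called.

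A region 2066 bp upstream of Diras1 (chr10:80489727-80490794), a gene of the Ras family, rose from 21, 17 and 20 at 24h to 55, 29 and 75 at ERKi 24h, and it was called in all 3 ERKi 4h libraries with 15, 13 and 11. The difference was 1.22 (SE 0.28, limma, adjusted p = 0.0275), and in log2 fold enrichment 0.86 (adjusted p = 0.0826). The last regions that rose were near Ttc26, a gene of intraflagellar transport (1.20), and Pemt, which methylates phosphatidylethanolamine (1.06).

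**Figure D4:**
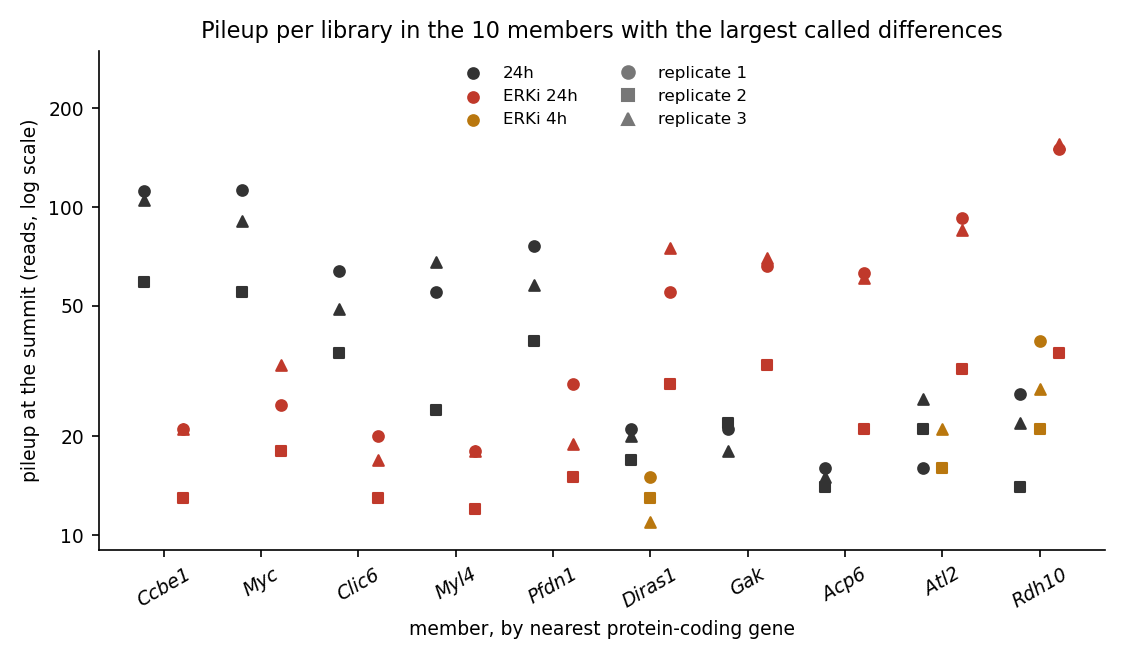
Pileup in reads on a log axis in each library at 24h, ERKi 4h and ERKi 24h for the 10 regions with the largest called differences, 1 point per library with a peak and 1 symbol per replicate number. In the region near Rdh10 the libraries move from 14 to 27 reads at 24h to 36 to 156 at ERKi 24h, and in the region near Ccbe1 from 59 to 112 down to 13 to 21.

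These calls depended on the libraries and on the measure. Without 24h replicate 1, 5 regions were called (1.31% of all tested regions), without ERKi 24h replicate 1 it was 6 (1.36% of all), and without 24h replicate 2 it was 37 (5.24% of all). Without centring 6 regions were higher and 8 lower, where 238 of all tested regions (0.743%) were higher and 176 (0.550%) lower, 1.29% in all. With the deposited fold enrichment in place of the pileup 3 regions were called, against 0.134% of all tested regions, and they were those near Clic6, Myo3b and Pemt, all among the 18. The median size of the difference in the 18 regions was 1.48 in log2 pileup and 0.47 in log2 fold enrichment, and 17 of them kept its sign, the exception being the Frmd4a region (0.20). With the replicate number as a block 139 (29.1%) were called, 57 higher and 82 lower, against 27.7% of all tested regions, with the 18 regions among them.

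The width and position of the peaks were compared as well. In log2 bases under peaks, 0 of the 478 regions and 0 of all 32021 (0%) passed an adjusted p of 0.05 in limma, while 51 of the 478 and 3537 of all had an unadjusted p under 0.05, and the smallest adjusted p of the 478 was 0.0752. The summits at 24h and ERKi 24h were a median of 53 bp apart, and in 413 regions (86.4%) within 200 bp, against 87.4% of all tested regions.

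The calls at ERKi 4h, which were not part of the choice, showed how many of the 478 regions already had a peak then. A region without a peak has no value, so acetylation under the calling threshold was not measured. Late-gained regions not called at ERKi 24h were also lower at 24h in the median. The part of signal height in the shares below was not tested. Of the 478 regions, 332 (69.5%) were called in no ERKi 4h library, 87 in 1, 49 in 2 and 10 in 3. A call in at least 1 was found in 146 regions (30.5%, 95% interval 26.4 to 34.9, Clopper-Pearson, counting error only), against 19.7% of the 26588 regions called in no library at 0h and 4h. That set includes regions present only through a peak at ERKi 4h, and over the 23856 with a call at 24h or ERKi 24h the share was 10.5% (2513). In the late-gained regions not called at ERKi 24h the share was 3.49% (16 of 458). In 477 regions called at ERKi 24h alone, in none of the DMSO libraries, it was 33.5% (160), which is near the share in the regions described here. Calls in all 3 ERKi 4h libraries occurred in 2.09% of the regions, against 0.256% (68) of those called in no library at 0h and 4h and 0.252% (60) of the 23856 among them with a call at 24h or ERKi 24h. Of all 89050 regions, 197 (0.221%) were called in all 3 ERKi 4h libraries and in none at 4h.

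The choice asks for no call at 4h with DMSO, so a call at ERKi 4h differs from 4h by construction. The peaks at ERKi 4h were low, with a median pileup of 16.5, 15 and 15 in the regions called and median percentiles of 9.97, 10.98 and 9.32. ERKi 4h replicate 1 carries a library number out of order in its peak names, and whether it belongs to another condition was not tested. Without it, 23.0% of the regions had a call. With the 5 libraries of replicate 2 left out from both the choice and the calls, an alternative added after the data had been seen, 17.0% of 2745 regions had one.

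The 10 regions called in all 3 ERKi 4h libraries lay near Rdh10, D130058E05Rik, Steap3, Plekhm2, Tmem52, Cyp26b1, Uvrag, Trhr2, Diras1 and Slc6a7. The Steap3 region (chr1:122132463-122133922, intron), in the gene for a ferric reductase, had 12, 12 and 13 at ERKi 4h, 39, 26 and 36 at 24h and 48, 24 and 34 at ERKi 24h. The Cyp26b1 region (chr6:84529227-84530343, intron) had 22, 20 and 12 at ERKi 4h, 26, 16 and 22 at 24h and 17, 15 and 21 at ERKi 24h. Cyp26b1 encodes an enzyme that breaks down retinoic acid, and it was named for its place among these 10, after its values were seen, beside Rdh10. In the Slc6a7 region the pileup went from 16, 15 and 21 at ERKi 4h to 120, 31 and 138 at ERKi 24h.

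The difference at 24h was set beside these calls. The median of ERKi 24h minus 24h was −0.16 over the 332 regions called in no ERKi 4h library, −0.02 over the 87 called in 1, 0.22 over the 49 called in 2 and 0.20 over the 10 called in 3. The share of regions above 0 was 34.0%, 49.4%, 61.2% and 70% in the same order. With fold enrichment the medians were −0.02, 0.03, 0.08 and 0.08 and the shares 47.6%, 54.0%, 67.3% and 60%, so the spread between the classes was smaller. Without centring the shares were 48.2%, 60.9%, 69.4% and 80%. With the pileups of all peaks of a region summed they were 33.1%, 50.6%, 65.3% and 40%, so the order held for 0 to 2 libraries only. This is a description across regions of the same libraries and was not tested.

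The nearest genes were compared with 11 lists of genes by role, and 44 regions had a listed gene as the nearest. Of the 44, 2 were called lower under ERKi, Myc and Itgb3, and 0 higher, with a median difference of −0.21 against −0.10 over all 478. With the replicate number as a block 3 of the 44 were called higher and 12 lower, where 14.0% of all tested regions were higher and 13.7% lower. Each share below is of the 478 regions and stands beside the share of all 89050 regions with the same list.

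Genes of the TGF-β pathway were nearest to 6 regions (1.26%, against 0.789% of all regions), 0 of them called in either direction, with or without the replicate block. Among the matrix and receptor genes, the region upstream of Ltbp2 (chr12:86225370-86226116), which encodes a matrix protein of the latent TGF-β binding family, had 87, 28 and 80 at 24h and 59, 24 and 68 at ERKi 24h (difference −0.47, adjusted p = 0.555). The region 136074 bp upstream of Tgfbr2 (chr9:116220000-116221346), the type II receptor, had 48, 18 and 52 at 24h and 52, 20 and 67 at ERKi 24h (difference 0.08). Among the inhibitors of the pathway, the region 118460 bp from Smad7 (chr18:75652701-75653236) had 83, 37 and 66 at 24h and 94, 45 and 109 at ERKi 24h, and that near Pmepa1 (chr2:173062629-173063628) had 49, 51 and 72 at 24h and 63, 47 and 73 at ERKi 24h. In the latter 2 regions the fold enrichment was low, with means of 2.60 and 2.29. The groups overlapped in all 4 regions. The other 2 were near Bmp1, a protease that processes procollagen, and Ltbp4.

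Transcription factors of EMT were nearest to 7 regions (1.46%, against 0.670% of all regions and 1.31% of the late-gained regions not called at ERKi 24h), 0 of them called, and with the replicate block the Runx1 region alone was called, lower. When start sites of genes of any kind were considered, 2 regions remained on this list (0.418%, against 0.314%). The higher of a pair of regions downstream of Elf3 (chr1:137123278-137124149), a gene for an epithelial Ets factor, had 69, 18 and 50 at 24h and 65, 20 and 54 at ERKi 24h, a difference of −0.07. The higher of a pair near Zeb1 (chr18:5509533-5511123), the repressor of E-cadherin, had 80, 16 and 57 at 24h and 54, 13 and 53 at ERKi 24h (difference −0.46, adjusted p = 0.698). In both regions the groups overlapped. The Runx1 region was described above, and the others were near Runx2 and Tcf3.

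Genes of the actin cytoskeleton were nearest to 7 regions (1.46%, against 0.503%), with 0 called and a median difference of −0.39, and 3 were called lower with the replicate block. They included Diap1, a formin that builds actin filaments, Myh9, non-muscle myosin IIA, Palld, Pdlim5, Cdc42ep3 and Arhgef3, the last with a pair of regions. The Palld region (chr8:64175930-64176625, intron), in the gene for the actin cross-linker palladin, had 95, 29 and 70 at 24h and 62, 22 and 62 at ERKi 24h (adjusted p = 0.0318 with the replicate block). The others called with the block were the Pdlim5 region, with 48, 50 and 44 at 24h and 36, 29 and 37 at ERKi 24h (adjusted p = 0.0156), and a region near Arhgef3 (adjusted p = 0.0450). Integrin and focal adhesion genes were nearest to 6 regions (1.26%, against 0.617%), of which the Itgb3 region fell, and with the replicate block the Tns3 region was called lower as well (adjusted p = 0.0121). The others were near Itgb6, Tns3, Fermt2 and Lpp, the last with a pair.

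Matrix and protease genes were nearest to only 3 regions (0.628%, against 0.674%), near Col12a1, Col5a2 and Timp2, with 0 called. The Col12a1 region (chr9:79528024-79529376, intron), in a gene for a fibril-associated collagen, had 19, 16 and 26 at 24h and 36, 19 and 56 at ERKi 24h (difference 0.63, adjusted p = 0.309, and 0.0259 with the replicate block). With the block the Col5a2 region, with 37, 16 and 28 at 24h and 22, 13 and 17 at ERKi 24h, was called lower (adjusted p = 0.0217). Junction and polarity genes were nearest to 4 regions (0.837%, against 0.537%), near Pard3, Tjp1 and a pair near Pkp1, with 0 called. With the replicate block 2 were called lower, 1 of the Pkp1 pair (adjusted p = 0.0230) and the Pard3 region (adjusted p = 0.0424).

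AP-1 and ERK feedback genes were nearest to 3 regions (0.628%, against 0.584%). Beside the Myc region, which fell, these were near Dusp10 and Dusp4, both of which encode phosphatases of MAP kinases. The Dusp10 region (chr1:185740730-185741895) had 44, 29 and 42 at 24h and 62, 17 and 64 at ERKi 24h, a difference of −0.02. The Dusp4 region (chr8:35709632-35711327) had 38, 18 and 57 at 24h and 71, 39 and 92 at ERKi 24h, higher in each replicate number, with a difference of 0.77 (adjusted p = 0.259, and 0.00625 with the replicate block).

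Wnt and Notch genes were nearest to 4 regions (0.837%, against 0.487%), with 0 called. A region 22657 bp upstream of Axin2 (chr11:108758543-108759456), a feedback inhibitor of Wnt signalling, had 20, 15 and 33 at 24h and 56, 29 and 79 at ERKi 24h (difference 1.10, adjusted p = 0.0771, and 0.00035 with the replicate block). A region downstream of the start of Jag1 (chr2:136893658-136894704), a Notch ligand, had 51, 20 and 43 at 24h and 57, 18 and 63 at ERKi 24h, a difference of 0.05. The other 2 were a second region near Jag1, called lower with the block (adjusted p = 0.0154), and one near the receptor gene Notch2. Growth factor receptors and ligands were nearest to 2 regions (0.418%, against 0.659%), Efnb2 and Kdr, of which the Kdr region was called lower with the block (adjusted p = 0.0187). The YAP and TEAD list was nearest to 1 (0.209%, against 0.325%), Frmd6, and cytokines to 1 (0.209%, against 0.386%), Il1b. The Frmd6 region (chr12:71991166-71992129, intron) had 77, 29 and 78 at 24h and 69, 29 and 67 at ERKi 24h.

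By position, the regions were distal. Their summits lay in promoters in 19 cases (3.97%), against 11.8% of all regions, in introns in 221 (46.2%, against 44.1%) and between genes in 218 (45.6%, against 38.2%). The median distance to the nearest start site was 19220.5 bp, against 15169.5 bp over all regions and 29025 bp in the late-gained regions not called at ERKi 24h, and 70 regions (14.6%) lay more than 100 kb away. The median width was 990.5 bp, against 591.5 bp over all regions. A region spans the joined peaks of every library that called it, so the choice by calls in part fixed its width. The median was 519 bp in the late-gained regions not called at ERKi 24h, 554 bp in those called at ERKi 24h alone and 1404 bp in those called in all 15 libraries. Relative to DNA already acetylated at 0h, 237 regions (49.6%) lay more than 10 kb from any region called at 0h, against 54.6% of those not called at ERKi 24h. Of all regions, which include those called at 0h, 30.0% lay more than 10 kb from any other region called at 0h.

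The 478 regions had 440 nearest genes, 404 with 1 region, 34 with 2 and 2 with 3. The pair with 3 were Trhr2, where the regions sat within 15204 bp on chromosome 8, and Trpm3, a cation channel gene on chromosome 19. At Trhr2 the first region (chr8:124856651-124857308) had 27, 22 and 21 at 24h and 23, 12 and 14 at ERKi 24h and was called in all 3 ERKi 4h libraries, and the others (chr8:124866476-124867468 and chr8:124871414-124871854) were called in 2 and 1 of them. At Trpm3 none of the 3 regions was called at ERKi 4h. In all, 53 regions (11.1%) lay in 26 groups of members within 50 kb of one another, and 4.49% of all 89050 regions lay within 50 kb of a member.

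Sequence was the last property compared. The AP-1 letters TGANTCA, which read the same on both strands, were found within 500 bp of the summit in 363 regions (75.9%), against 44.6% of all regions and 47.5% of all distal regions. The share was 72.9% in the late-gained regions not called at ERKi 24h, 56.0% in those called at ERKi 24h alone and 36.7% in those called in all 15 libraries. The letters were thus frequent in late-gained regions whether or not these were called under ERKi. With TGAGTCA or TGACTCA alone the share was 64.0% against 35.1%, and with TGAATCA or TGATTCA 24.9% against 15.4%. At least 2 matches were present within 500 bp in 31.2% of the regions and 12.9% of all regions. The window can reach past the ends of a region, so a match need not lie inside it.

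The matches lay beside the summits rather than under them. Within 100 bp of the summit 6.49% of the regions and 5.78% of all regions had a match, and within 200 bp, the main window of this comparison, 28.0% and 16.1%. In the late-gained regions not called at ERKi 24h the shares were 5.90% within 100 bp and 24.2% within 200 bp. In those called at ERKi 24h alone they were 9.43% and 24.5%, so the gap to that set depended on the window. Per bin of 100 bp outwards, the share was 6.69%, 23.2%, 35.6%, 20.3% and 15.7% in the 478 regions and 5.93%, 11.2%, 16.1%, 13.2% and 9.54% in all regions. The third bin, 200 to 300 bp from the summit, was highest in both.

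**Figure D5:**
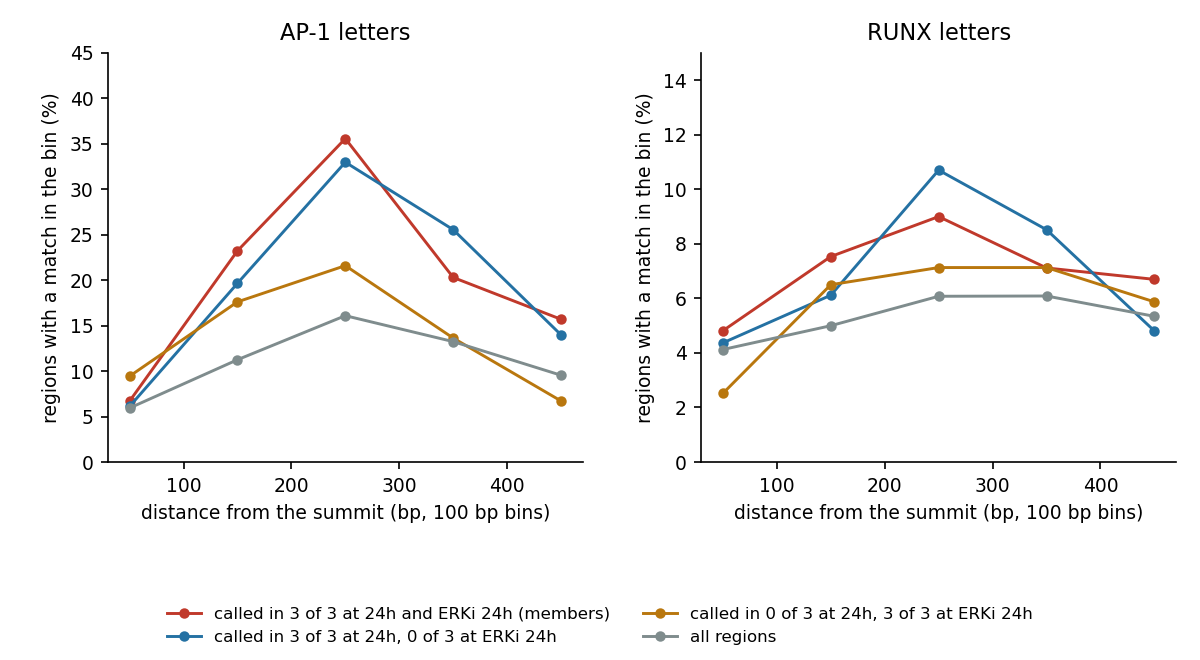
Share of regions in percent with the AP-1 letters (left) and the RUNX letters (right) in each 100-bp bin of distance from the summit, for the 478 regions, those not called at ERKi 24h, those called at ERKi 24h alone and all regions. The 478 regions reach 35.6% in the third bin, against 16.1% of all regions.

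The median of ERKi 24h minus 24h was −0.09 over the 363 regions with a match and −0.12 over the 115 without, which was not tested. No match was found in the windows of the Ccbe1, Myc, Myl4, Itgb3, Rdh10 and Atl2 regions, while those of Clic6, Acp6, Gak and Diras1 had one.

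Of the 12 other motifs searched, the SMAD palindrome GTCTAGAC was found within 500 bp in 14 regions (2.93%), against 1.34% of all regions, 1.31% (6) of those not called at ERKi 24h and 2.73% of those called at ERKi 24h alone. The RUNX letters TGTGGTT were found within 500 bp in 29.1% of the regions, against 23.6% of all regions and 30.1% of those not called at ERKi 24h, and the TEAD letters CATTCCA in 20.7%, against 17.9%. The E-box of ZEB and SNAI, CACCTG, was at 49.0% against 51.6%. Letters common in promoters were rarer than in all regions, with the KLF and SP letters GGGCGGG at 3.97% against 18.6% and the ETS letters CCGGAAG at 3.14% against 8.44%. With promoters left out from both sets the gaps were smaller, 3.92% against 13.3% for KLF and SP and 3.05% against 6.35% for ETS. All motifs were searched on both strands in windows of the same length, and the median GC content was 46.4% against 47.9% over all regions.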

How the data were processed

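H3K27ac ChIP-seq was measured in 15 libraries, 3 in each of 5 conditions given by the sample labels. Per the labels and the study's methods, the authors used Bowtie for alignment to mm9 and MACS2 for peaks, 1 list per library. The control used for calling is not given in the sources used here. The deposited lists give fold enrichment over local background as a ratio, the p-value and the q-value of each peak as −log10, and a score that repeats the q-value and was not used. They hold no read totals, so depth is unknown, and no value where no peak was called. The pileup was recovered from fold enrichment and −log10 p through the Poisson tail that MACS2 uses, within 0.005 of the deposited −log10 p for all but 25 of 893719 peaks, none of them in the 478 regions.

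Peaks overlapping by 1 bp were merged, and the highest peak of each library in a region gave its value. Log2 values of regions called in all 6 libraries were centred per library on regions called in all 15 libraries and fitted with limma 3.58.1 in R 4.3.3 (moderated, with an intensity trend, p-values adjusted by Benjamini-Hochberg over the 32021 regions). On simulated data for ERKi 24h against 24h, changes of 1 log2 unit were recovered in 44 of 100 regions and of 2 log2 units in 100 of 100, with 8 false calls among 32021 regions. The simulated noise was independent between libraries and had the same spread in every region. It lacked the deviations that same-numbered libraries shared, so these counts check the fit and need not hold for the data. Nothing says that replicates came from separate cultures, so p-values measure the spread between these libraries, which may be technical. Same-numbered libraries deviated together (correlation of deviations above 0.1 in 30 of 30 pairs of libraries, mean 0.581), and at 24h and ERKi 24h in 3 of 3, from 0.549 to 0.767. The study used no block, so the replicate block was an alternative. No libraries were identical.

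Start sites, gene classes and sequence came from the mm9 annotation and genome given with the data. A summit counted as a promoter's when at most 1000 bp upstream or 100 bp downstream of a start site. Python 3.11.15 with numpy 2.4.6, pandas 2.3.3, scipy 1.17.1 and matplotlib 3.10.9 was used.

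The regions, the gene lists, markers and motifs were chosen with earlier results of these data known. One of the markers is not reported here. Regions named were the 10 with the highest mean percentile, the 5 with the largest increase and the 5 with the largest decrease among those called, the 3 highest of each gene list, the 5 highest of those called in all and in none of the ERKi 4h libraries, genes nearest to 3 or more regions, and the 3 regions nearest to the edge of the choice on each side. The 10 regions with the highest fold enrichment, and other regions named as members of a count, were added after their values had been seen.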

Additional observations from a re-analysis of the deposited data

How the results depend on the processing

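The number of regions chosen, 478, was 199 when a call had to cover at least 50% of the region (36 shared with the 478). With the 50000 peaks of each list that had the highest −log10 p it was 340 (211 shared). When each library was left out in turn it was 478 to 1208. It was 745 without 4h replicate 3, 775 without 24h replicate 2 and 1208 without ERKi 24h replicate 2. Without the 5 libraries of replicate 2, an alternative added after the data had been seen, it was 2745, with the 478 among them. The share with a call at ERKi 4h (30.5%) was 21.5% to 28.9% with 1 ERKi 4h library left out and 17.0% without replicate 2. Regions called in log2 pileup (18) numbered 3 with the deposited fold enrichment, of 43 called among all 32021. With regions called in at least 4 of 6 libraries they numbered 5, of 563 called among 43825 tested. There a missing value was set to the lowest pileup of that library. With 1 library left out they numbered 5 to 37. With the replicate block they numbered 139, and the block left calls in bases under peaks at 0. Further alternatives were added after the data had been seen. Fold enrichment with the replicate block gave 16, of 437 called among all 32021. Leaving out both replicate 2 libraries gave 18, of 721 called among all 32021. The median difference (−0.10) changed sign to 0.00 with fold enrichment, with or without the block (0.002049), and to 0.04 without centring (0.035608). The AP-1 share (28.0% within 200 bp) was 75.9% within 500 bp and 6.49% within 100 bp. Promoters (3.97%) were 12.1% when defined as within 2500 bp of a start site, against 26.2% of all regions under that definition. Regions nearest to a listed gene (44) numbered 28 when genes of any kind were considered.

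Of 170 refits of the 10 regions with the largest called changes, 130 kept the call, 40 lost it and 0 changed sign. All 10 were called without centring, with quantile normalization, without the trend and with the block, and 5 without 24h replicate 1 or without ERKi 24h replicate 1. With regions called in at least 4 of 6 libraries 4 of the 10 were called. With fold enrichment and the block 3 were called, and with fold enrichment alone 1. The cause was not tested. A region without a peak has no value in the lists, so signal under the calling threshold at 0h and 4h was not measured, and the pileup of a peak depends on the unknown depth of its library.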
